A study of Mus musculus with 9 samples.

Results

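The cluster of miR-322, miR-351, miR-450, miR-503 and miR-542 is a row of 7 miRNA hairpins on the X chromosome of the mouse, here measured in extracellular vesicles (EVs) of the airway. Its members were taken by name: every entry of the hairpins named mir-322, mir-351, mir-450a, mir-450b, mir-503 and mir-542 in the deposited table, with both arms, genomic copies and isomiRs, which are variants of a mature miRNA. This gave 33 of the 1308 entries in the table, of which 8 belonged to miR-322, 7 to miR-351, 5 each to miR-450a and miR-450b, and 4 each to miR-503 and miR-542. The group of members was selected on their RPMMM levels across exposures, seen in an earlier look at these data. Values by exposure are therefore given as a description. The only tests read as results are those between members within a pool, apart from the arm tests of miR-542 and miR-450a.

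Female C57BL/6J mice of 8 to 10 weeks, with no other treatment, were exposed in a whole body chamber for 3 h to filtered air (FA, the control), 1 ppm ozone (O3) or 2 ppm O3. Bronchoalveolar lavage fluid (BALF), the saline wash of the airways, was collected the day after the exposure. It was freed of cells and debris and then pooled. Each of the 3 FA pools held 4 mice, and each of the 3 pools at either O3 concentration held 3 mice. EV RNA was sequenced as small RNA libraries, 1 per pool. Pool size and exposure to O3 cannot be told apart, and a pool gives no value for a single mouse. The paper lists 1 exposure run at each O3 concentration, so effects of run and of concentration cannot be told apart either. Pool numbers only name the pools.

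A miRNA hairpin is cut by the nucleases Drosha and Dicer into a duplex, of which the 5′ side (5p) or the 3′ side (3p) is loaded into an Argonaute protein. Bases 2 to 8 of the loaded strand, the seed, pair with target mRNAs and lower their stability and translation, so miRNAs with the same seed can act on the same sites. The mouse miR-322 is the counterpart of human miR-424, and miR-322-5p and miR-503-5p are known as relatives of miR-15 and miR-16 that restrain the cell cycle and act in muscle differentiation. miR-351-5p is known as a relative of miR-125, and airway EVs, shed by epithelial cells and leukocytes among others, are studied as carriers of such miRNAs between cells.

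In mm9, the build of the authors' alignment, the hairpins lie on the minus strand of chromosome X within 6353 bases, in the order of transcription miR-322 (chrX:50407432-50407526), miR-503 (chrX:50407161-50407231), miR-351 (chrX:50406432-50406530), miR-542 (chrX:50402580-50402664), miR-450a-2 (chrX:50401476-50401544), miR-450a-1 (chrX:50401331-50401421) and miR-450b (chrX:50401174-50401255). The gaps between them run from 54 bases, between the copies of miR-450a, to 3767 bases, between miR-351 and miR-542. No other gene of the annotation overlaps a hairpin. The nearest gene upstream is the long non-coding RNA C430049B03Rik (chrX:50408223-50410367), on the same strand and 696 bases from miR-322, and the nearest protein-coding genes are Hprt and Plac1.

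The 14 mature sequences, 21 to 24 bases long, were read from RefSeq (GRCm38.p6 table) and found in mm9 at these hairpins. They are shown with the seed in capitals because the members fall into seed groups that the name of the cluster hides. The first pair belongs with miR-15 and miR-16: the seed of miR-322-5p, AGCAGCA, is also that of miR-15a-5p, miR-15b-5p, miR-16-5p, miR-195a-5p and miR-497a-5p, and that of miR-503-5p, AGCAGCG, is held by no other mature miRNA of the table.
miR-322-5p: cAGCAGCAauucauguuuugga
miR-503-5p: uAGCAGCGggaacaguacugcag

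The most abundant member, miR-351-5p, has the seed of miR-125a-5p and miR-125b-5p, CCCUGAG. The less abundant side of its hairpin, miR-351-3p, and miR-542-3p, which has been studied as a repressor of the survival factor survivin, share their seeds with no other mature miRNA of the table.
miR-351-5p: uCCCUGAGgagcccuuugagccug
miR-351-3p: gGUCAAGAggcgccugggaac
miR-542-3p: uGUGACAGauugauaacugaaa

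The 2 genomic copies of miR-450a give the same 5p sequence, so that their reads cannot be assigned to a copy. miR-450b-5p matches it at 15 of 22 positions and has another seed, whereas miR-450a-1-3p and miR-450b-3p match at 20 of 22 positions and share the seed UUGGGAA.
miR-450a-5p: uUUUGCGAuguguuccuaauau
miR-450b-5p: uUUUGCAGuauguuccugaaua
miR-450a-1-3p: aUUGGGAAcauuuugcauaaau
miR-450b-3p: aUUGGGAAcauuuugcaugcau

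The isomiRs of miR-322-3p carry much of that arm. In the names of the table, the suffix gives the shift of the 5′ end in bases, read here as upstream for a minus sign; this reading was taken from other miRNAs of the table and is not stated in the sources used here. A start 1 or 2 bases upstream moves the seed window, so that the 3 forms below hold 3 different seeds. The 3′ ends are not part of the names, and the sequences are drawn with the 3′ end of the RefSeq form.
miR-322-3p: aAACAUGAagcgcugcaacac
miR-322-3p_-_1: aAAACAUGaagcgcugcaacac
miR-322-3p_-_2: cAAAACAUgaagcgcugcaacac

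Levels are in RPMMM, the authors' miRNA reads scaled to the same total of miRNA reads in every pool. The steps between low values correspond to 536212 to 861326 miRNA reads in the FA and 1 ppm O3 pools but only 281204 to 300551 in the 2 ppm O3 pools. The lowest value above 0 was 11.81 to 18.92 RPMMM in the FA and 1 ppm O3 pools and 34.34 to 37.3 RPMMM in the 2 ppm O3 pools. A low member can thus be listed at 0 there at a level that other pools would show. Depths were searched only where this lowest value came to about 10 reads. That number was therefore assumed, and all read counts given here rest on it. The hairpins miR-5115, miR-5109, miR-5105 and miR-5102, together with miR-2137, held 0.588% of miRNA reads in FA, 8.07% after 1 ppm O3 and 45.2% after 2 ppm O3, and every RPMMM value is a share of a total that includes them. Of the miRNAs known to mark cell types, the summed level of the 5 epithelial hairpins of the miR-200 family ran from 26265 to 69404 RPMMM, and that of the leukocyte hairpins miR-142, miR-223 and miR-150 from 1285 to 2362 RPMMM. Fewer vesicles from a cell type and less of a miRNA per vesicle cannot be told apart in such pools.

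The cluster as a whole was a small part of the EV miRNAs, and was lowest after 2 ppm O3. Its summed level, with the identical copies of miR-450a counted once, was 3761, 6033 and 3990.4 RPMMM in the FA pools, 4569, 3984 and 3316 RPMMM after 1 ppm O3, and 1101, 841 and 1082 RPMMM after 2 ppm O3. All 3 pools at 2 ppm O3 lay below the other 6, whereas the FA and 1 ppm O3 pools overlapped. The mean was 4595 ± 1251 RPMMM in FA (SD, n = 3 pools), 3957 ± 627 RPMMM after 1 ppm O3 and 1008 ± 145 RPMMM after 2 ppm O3, which is 0.459%, 0.396% and 0.101% of miRNA reads. The ratio to FA was 0.861 after 1 ppm O3 and 0.219 after 2 ppm O3. Of the 33 members, 25 were listed at 0 in all 2 ppm O3 pools and add nothing to the sum there. The lowest listed value in those pools was 34.34 to 37.3 RPMMM. The sum and the ratio at 2 ppm O3 may thus be too low, by an amount that was not estimated.

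The size of this difference depended on the scaling of the pools, but the gap between the pools did not close under any of the scalings tried. The ratio of 2 ppm O3 to FA rose to 0.272 when miR-2137 was left out of the total, to 0.398 when the 4 other hairpins named above were left out as well, and to 0.355 under median-of-ratios scaling. In each of these 3 scalings the highest pool at 2 ppm O3 was below the lowest of the other 6 pools; these were 1558 and 2861 RPMMM under median-of-ratios scaling and 2086 and 3510 RPMMM without the 5 hairpins.

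miR-351-5p was the leading member in every pool. It was measured at 1601, 3903 and 2553 RPMMM in FA, 2342, 1828 and 1196 RPMMM after 1 ppm O3, and 499, 433 and 578 RPMMM after 2 ppm O3. The FA and 1 ppm O3 pools overlapped and those at 2 ppm O3 were below both. On the log2(RPMMM + 1) scale, the difference from FA was -0.55 (SE 0.33) after 1 ppm O3 and -2.33 (SE 0.33) after 2 ppm O3, a 5.03-fold lower level.

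Its partner arm, miR-351-3p, was at 463, 570.3 and 233 RPMMM in FA, 289.5, 113 and 312 RPMMM after 1 ppm O3, and 106, 38.0 and 81.7 RPMMM after 2 ppm O3. All pools at 2 ppm O3 were below all others, and the 1 ppm O3 pools overlapped those of FA. The log2 difference from FA was -0.86 (SE 0.56) after 1 ppm O3 and -2.50 (SE 0.56) after 2 ppm O3, close to that of the 5p arm.

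miR-322-3p, the leading strand of its hairpin, was highest at 1 ppm O3. Its level was 309, 268 and 368 RPMMM in FA, 820.4, 726 and 508 RPMMM after 1 ppm O3, and 226, 211 and 181 RPMMM after 2 ppm O3. No exposure overlapped another, with the 1 ppm O3 pools the highest and the 2 ppm O3 pools the lowest. The log2 difference from FA was 1.10 (SE 0.25) after 1 ppm O3, a 2.15-fold higher level, and -0.60 (SE 0.25) after 2 ppm O3. The latter turned to 0.09 under median-of-ratios scaling and to 0.26 without the 5 hairpins.

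The isomiR of miR-322-3p that starts 2 bases upstream had another profile than the unshifted form. It was at 318, 508 and 379 RPMMM in FA, 398, 342 and 387 RPMMM after 1 ppm O3, and 36.6, 86.4 and 99.4 RPMMM after 2 ppm O3. The FA and 1 ppm O3 pools overlapped and the 2 ppm O3 pools were below them. The log2 difference from FA was -0.07 (SE 0.40) after 1 ppm O3 and -2.52 (SE 0.40) after 2 ppm O3.

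The isomiR of miR-322-3p that starts 1 base upstream was at 123, 105 and 146 RPMMM in FA, 126, 162 and 60.4 RPMMM after 1 ppm O3, and 73.1, 72.6 and 88.8 RPMMM after 2 ppm O3. The 2 ppm O3 pools were below those of FA but within the range of the 1 ppm O3 pools. The log2 difference from FA was -0.20 (SE 0.48) after 1 ppm O3 and -0.66 (SE 0.48) after 2 ppm O3, and both changed sign under at least 1 other setting.

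miR-322-5p, the strand with the miR-15 seed, was near the lower limit of the data. It was at 106, 34.9 and 93.4 RPMMM in FA, 59.9, 37.8 and 22.1 RPMMM after 1 ppm O3, and 49.8, 0 and 53.3 RPMMM after 2 ppm O3. The 3 exposures overlapped. The log2 difference from FA was -0.91 (SE 1.49) after 1 ppm O3 and -2.35 (SE 1.49) after 2 ppm O3. The latter rests on the pool at 0: it was -0.44 without 2 ppm O3 pool 2 and -0.63 with lower values set to 37.3 RPMMM, the highest of the pools' lowest values.

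miR-542-3p was at 101, 63.4 and 97.1 RPMMM in FA, 185, 106 and 213 RPMMM after 1 ppm O3, and 53.2 RPMMM in 1 pool and listed at 0 in the other two after 2 ppm O3. The 1 ppm O3 pools lay above all FA pools and those at 2 ppm O3 below them. The log2 difference from FA was 0.91 (SE 1.44) after 1 ppm O3 and -4.51 (SE 1.44) after 2 ppm O3. The size of the latter depends on the zeros, and it was -1.01 when every lower value was set to 37.3 RPMMM.

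miR-450a-5p, with identical values for both copies, was at 115, 149 and 44.8 RPMMM in FA and 122, 132 and 109 RPMMM after 1 ppm O3. It was listed at 0 in all 3 pools at 2 ppm O3, for which no fold is given. The 1 ppm O3 pools lay within the range of FA, with a log2 difference of 0.39 (SE 0.94), and all 6 of these pools were above the lowest values that the 2 ppm O3 pools list.

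**Figure D1:**
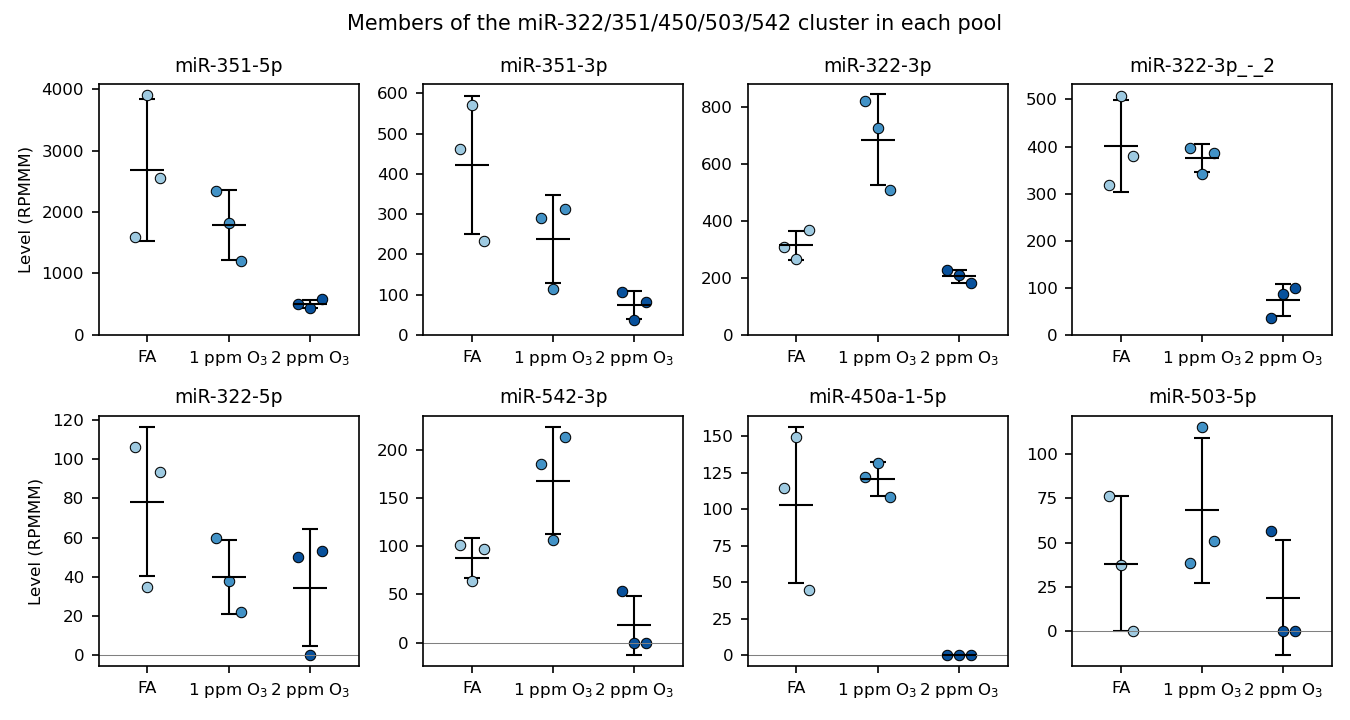
Level in RPMMM (y axis, from 0) of 8 members in each pool (points) by exposure (x axis), with the mean and SD of 3 pools as a line and bars; miR-322-3p_-_2 is the isomiR that starts 2 bases upstream, and bars that reach below 0 are those of groups with pools at 0. The 2 ppm O3 pools are the lowest for both arms of miR-351 and for miR-322-3p and its isomiR, whereas miR-322-3p is highest after 1 ppm O3, at 508 to 820.4 RPMMM.

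The remaining unshifted members were each listed at 0 in at least 3 pools. miR-503-5p was at 76.5, 37.5 and 0 RPMMM in FA, 38.3, 115 and 51.1 RPMMM after 1 ppm O3, and 56.5, 0 and 0 RPMMM after 2 ppm O3, so that all exposures overlapped. miR-503-3p was listed above 0 in 1 FA pool, at 38.8 RPMMM, and in 2 pools at 1 ppm O3, at 68.5 and 74.3 RPMMM. miR-450b-3p was listed above 0 in 2 FA pools, at 20.7 and 23.3 RPMMM, and in 2 pools at 1 ppm O3, at 69.9 and 86.3 RPMMM. With its isomiRs, the arm summed to 194, 23.3 and 0 RPMMM in FA and 69.9, 90.1 and 135 RPMMM after 1 ppm O3, and was at 0 after 2 ppm O3.

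The 3p arm of miR-450a-1 was above 0 in 1 FA pool and 1 pool at 1 ppm O3, at 62.2 and 60.8 RPMMM. miR-450b-5p was also above 0 in 1 pool of each, at 56.9 and 18.3 RPMMM, and miR-542-5p was above 0 only in 2 pools at 1 ppm O3, at 19.8 and 16.3 RPMMM. Of these 6 low members, miR-503-5p was the only one above 0 in a 2 ppm O3 pool.

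Of the 33 members, 5 were above 0 in every pool: miR-351-5p, miR-351-3p and miR-322-3p with its 2 upstream isomiRs. A further 10 were above 0 in 1 pool only. FA pools held 12 to 21 members above 0, 1 ppm O3 pools 15 to 22, and 2 ppm O3 pools 5 to 8. Of all 1308 entries, 511 to 561 were at 0 in FA pools, 456 to 591 in 1 ppm O3 pools and 802 to 839 in 2 ppm O3 pools. More zeros at 2 ppm O3 were thus a feature of the whole list, and nothing is read from the counts of members. Of the 25 members listed at 0 in all 2 ppm O3 pools, 13 did not exceed 37.3 RPMMM in any of the other 6 pools, so for those a zero at 2 ppm O3 may only reflect the limit of the list. Of the 8 members above 37.3 RPMMM in all FA pools, the 2 copies of miR-450a-5p were listed at 0 in all pools at 2 ppm O3.

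Differential expression (DE) was called with limma on log2(RPMMM + 1) among 461 entries whose mean exceeded 50 RPMMM. The thresholds were those of the study, a 2-fold difference in either direction with an adjusted p under 0.05. The entries tested here include isomiRs and genomic copies, and the study's test is not known. The shares called below are therefore not the study's own counts of DE miRNAs. A total of 9 members passed the filter and 24 did not. The values closest to it were 50.8 RPMMM for miR-322-5p, inside, and 47.1 RPMMM for the isomiR of miR-351-5p that starts 1 base downstream, outside. The counts that follow are set beside the share of all entries called, and nothing is read from them, since the members were picked with these comparisons in view. Whether a call holds in other settings is likewise a description, because every setting draws on the same pools and adds no support.

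At 1 ppm O3, 1 of the 9 members tested was DE against FA, miR-322-3p, which was higher; of all entries tested, 10.4% were higher and 2.82% lower, or 13.2% in either direction. This call was lost in 4 of 19 other settings. The log2 difference was then 0.99 without FA pool 2, 0.96 without 1 ppm O3 pool 1 and 1.05 without 1 ppm O3 pool 2, and stayed at 1.10 with no filter on low values. The members' median log2 difference was -0.07, and that of all entries tested was -0.08.

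At 2 ppm O3, 6 of the 9 members were DE against FA, all lower: both arms of miR-351, the 2-base upstream isomiR of miR-322-3p, miR-542-3p and the 2 copies of miR-450a-5p, which share their reads. The copies of miR-450a-5p passed the filter through their FA and 1 ppm O3 pools alone. Of all entries tested, 29.3% were lower, 14.3% higher and 43.6% either. Under the other scalings the calls were 6 of 9 members beside 35.4% of all entries without miR-2137 in the total, 5 of 8 beside 26.4% with median-of-ratios scaling, and 5 of 9 beside 15.6% without the 5 hairpins. The members' median log2 difference was -2.50, beside -0.83 for all entries tested, and -1.28 beside -0.73 with lower values set to 37.3 RPMMM. The calls of both arms of miR-351 and of the isomiR held in every other setting run for them, with the 5p arm between -2.66 and -1.47.

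The call of miR-542-3p at 2 ppm O3 was lost in 7 of 18 other settings, among them both scalings that moved the median of all entries closest to 0. Without FA pools 1, 2 and 3 in turn its log2 difference was -4.39, -4.73 and -4.42, and without pools 2 and 3 at 2 ppm O3 it was -3.55 each time, none of them called. Without 2 ppm O3 pool 1, the only one above 0, it was -6.43 and called.

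Between the O3 concentrations, which share their pools with both comparisons above, 7 of the 9 members were lower at 2 ppm O3, as were 22.3% of all entries tested, with 11.3% higher and 33.6% either. They were the same 6 entries and miR-322-3p, which differed by -1.71 (SE 0.25), or by -0.96 and no longer called without the 5 hairpins. The difference of miR-351-5p was -1.78 (SE 0.33) and was called in all 19 other settings. That of miR-351-3p was -1.64 (SE 0.56), and its call was lost in 11 of 19 settings, including all 3 other scalings and 6 of the 9 fits without 1 pool. It was -1.64 without FA pool 1 or 2, -1.43 and -1.38 without 1 ppm O3 pools 1 and 3, and -1.21 and -1.76 without 2 ppm O3 pools 2 and 3. The call of miR-542-3p was lost without 1 ppm O3 pool 3, at -5.22.

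**Figure D2:**
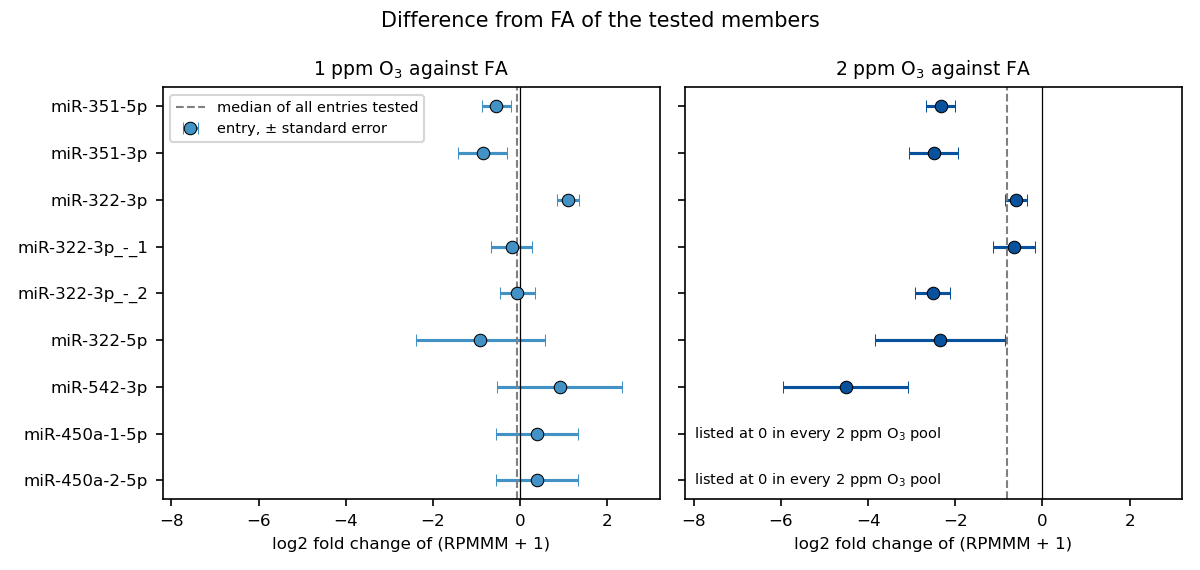
Difference from FA on the log2(RPMMM + 1) scale (x axis) of the 9 tested members (y axis) after 1 ppm O3 (left) and 2 ppm O3 (right), as the limma estimate with its SE; the dashed line is the median of all 461 entries tested. At 1 ppm O3 the members scatter on both sides of the median at -0.08, with miR-322-3p at 1.10, and at 2 ppm O3 both arms of miR-351 and the isomiR miR-322-3p_-_2 lie between -2.52 and -2.33 against a median of -0.83.

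**Figure D3:**
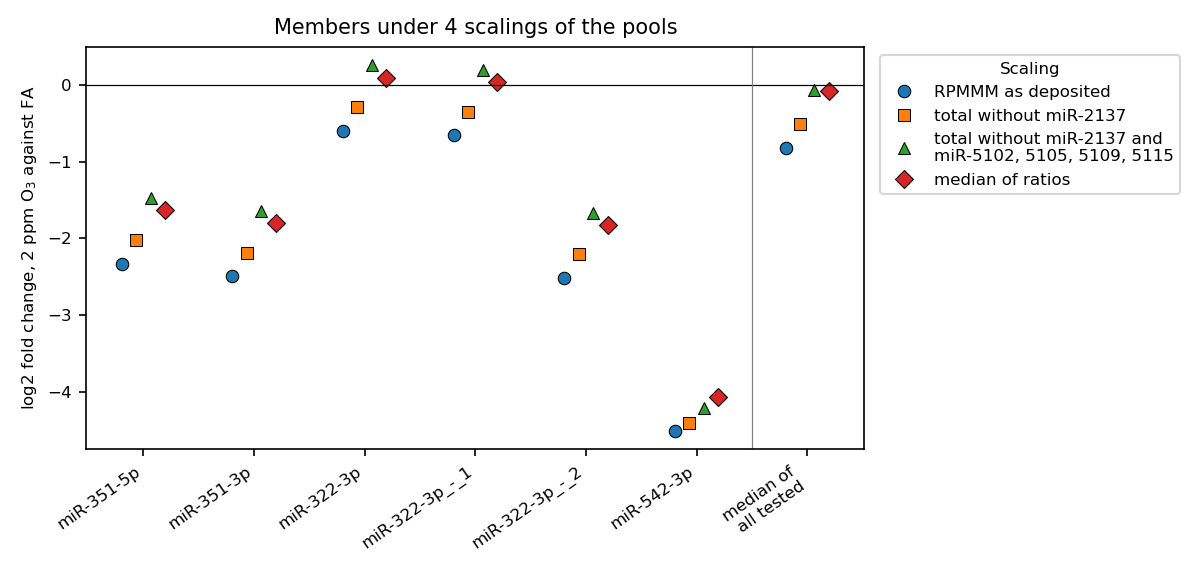
The log2 difference between 2 ppm O3 and FA (y axis) of 6 members and of the median of all entries tested (x axis) under 4 scalings of the pools (symbols). The median moves from -0.83 to -0.07, and the miR-351 and miR-322 entries shown move with it: miR-322-3p and its 1-base upstream isomiR cross 0, while miR-351-5p stays at -1.47 or lower. miR-542-3p, with pools at 0, moves less, from -4.51 to -4.07.

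Ratios between members within a pool do not depend on the scaling of the pools. The ratio of miR-351-5p to miR-322-3p was 5.19, 14.6 and 6.94 in FA, 2.85, 2.52 and 2.36 after 1 ppm O3, and 2.21, 2.05 and 3.19 after 2 ppm O3. Every FA pool was above every O3 pool, and the O3 concentrations overlapped. This ratio is built from the levels by exposure that were in view, so that no test is given.

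The make-up of the cluster differed between exposures as well. The share of miR-351 in the summed level was 70.1 ± 8.60% in FA (SD, n = 3 pools), 53.7 ± 5.44% after 1 ppm O3 and 57.3 ± 3.17% after 2 ppm O3. The share of miR-322 was 21.5 ± 5.01%, 31.3 ± 1.23% and 39.3 ± 4.48%, and for it no exposure overlapped another. The hairpins named mir-450a, mir-450b, mir-503 and mir-542 together held 3.56 to 15.1% in FA and 9.49 to 20.3% after 1 ppm O3. At 2 ppm O3 they were at 9.96% in 1 pool and listed at 0 in the rest, where the limit of the list also bears on them. Low members that go unlisted raise the shares of miR-322 and miR-351 at 2 ppm O3. The gap in the share of miR-322 between the O3 concentrations may therefore come in part from this limit, which was not tested.

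**Figure D4:**
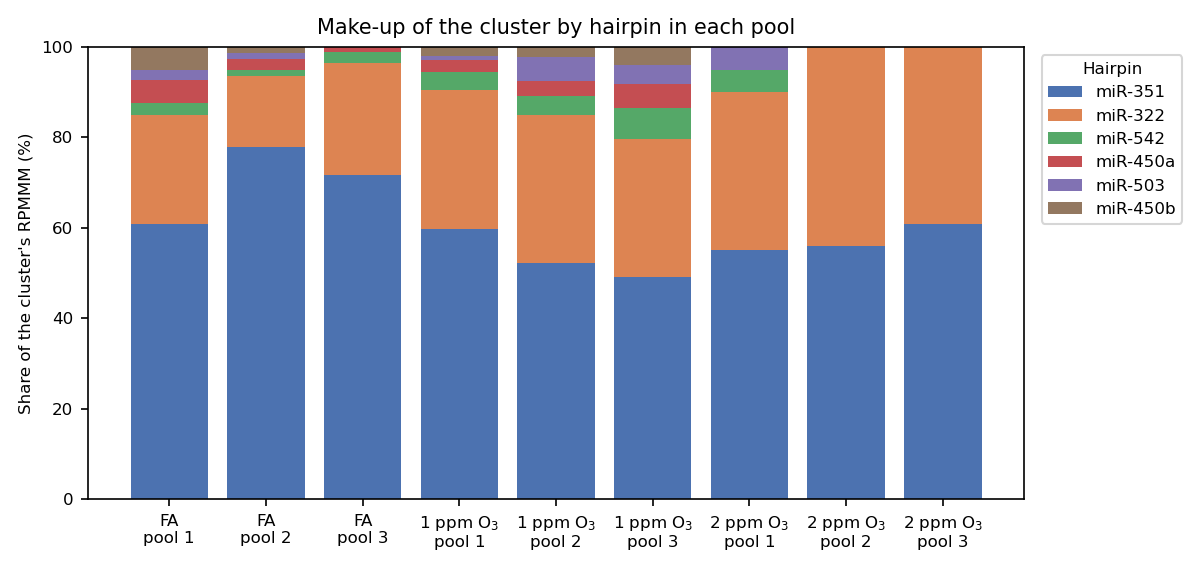
Share of each hairpin in the summed RPMMM of the cluster (y axis, percent) in each of the 9 pools (bars), with the identical copies of miR-450a counted once. miR-351 makes up 60.9 to 77.8% in FA and 49.2 to 60.9% in the O3 pools, and miR-322 makes up 15.7 to 24.7% in FA and 30.5 to 44.0% in the O3 pools.

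Within hairpins, each arm difference was tested over the 9 pools with an exact sign-flip permutation test, two-sided, with p-values adjusted over the 4 hairpins that had both arms listed and either above a mean of 50 RPMMM. From miR-322, the 3p arm was far above the arm with the miR-15 seed: miR-322-3p was higher than miR-322-5p in 9 of 9 pools by 3.39 ± 1.96 on the log2 scale (SD; exact adjusted p = 0.0078125), and by 4.35 with isomiRs summed into the arms. From miR-351, the 5p arm was higher in 9 of 9 pools by 2.83 ± 0.75 (SD; exact adjusted p = 0.0078125). The unadjusted p of both was 0.00390625, the smallest that 9 pools allow.

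miR-542-3p was higher than miR-542-5p in 7 of 9 pools, with both arms at 0 in the other two, by 4.29 ± 2.91 (SD; exact adjusted p = 0.020833). The size is set by the constant added before the logarithm, since the 5p arm was at 0 in 7 of 9 pools: it was 2.42 with 10 RPMMM added and 4.85 with 0.5 RPMMM. miR-450a-1-5p was higher than its 3p arm in the 6 pools of FA and 1 ppm O3, with both at 0 in the rest, by 3.16 ± 3.40 (SD; exact adjusted p = 0.03125), or by 1.73 with 10 RPMMM added and 3.60 with 0.5 RPMMM. The 5p reads can come from either copy and the 3p reads from copy 1, so this is not strictly a difference within 1 hairpin. The hairpin entered the tests through the 5p arm in its FA and 1 ppm O3 pools, and miR-542 entered through its 3p arm. The other arm was above 0 in only 2 pools for each hairpin. The filter thus chose the arm that came out higher, so nothing is read from these 2 tests. Before adjustment, the exact sign-flip p was 0.015625 for miR-542 and 0.03125 for miR-450a-1. These are the smallest that 7 and 6 pools with an arm above 0 allow. With any 1 of the 6 pools left out the difference was 2.65 to 3.45, and the exact adjusted p was 0.0625, the smallest that 5 pools above 0 allow, so those fits cannot pass the threshold.

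The split between the arms of miR-322 differed between exposures in part. The 3p arm made up 74.4, 88.5 and 79.8% of the unshifted miR-322 entries in FA, 93.2, 95.0 and 95.8% after 1 ppm O3, and 81.9, 100 and 77.3% after 2 ppm O3. The 1 ppm O3 pools were above all FA pools, and the 2 ppm O3 pools spanned both, with 100% in the pool where miR-322-5p was listed at 0. With isomiRs included, the share was 83.0, 96.3 and 90.5% in FA, 95.7, 97.1 and 97.8% after 1 ppm O3, and 87.1, 100 and 87.4% after 2 ppm O3, and the FA and 1 ppm O3 pools overlapped. The 3p arm of miR-351 made up 8.38 to 22.4% in FA, 5.85 to 20.7% after 1 ppm O3 and 8.07 to 17.6% after 2 ppm O3, with overlap throughout.

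The leading arms of the 6 members were then put in order of their mean over the 9 pools and each was tested against the next, with p-values adjusted over the 5 pairs. miR-351-5p (1659 RPMMM) was above miR-322-3p (402 RPMMM) in 9 of 9 pools by 1.88 ± 0.95 on the log2 scale (SD; exact permutation test, two-sided, adjusted p = 0.0097656), and by 0.92 with isomiRs summed into the arms. miR-322-3p was above miR-542-3p (90.9 RPMMM) in 9 of 9 pools by 3.23 ± 2.52 (SD; exact permutation test, adjusted p = 0.0097656), a size that was 2.43 with 10 RPMMM added before the logarithm and 4.15 with isomiRs summed. The order was set by the same values, so these tests speak of the gaps and not of the order.

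Below them, no pair passed the threshold, and each mean difference was smaller than its SD over pools. By pool, miR-542-3p was above miR-450a-5p in 4 of 9, and miR-503-5p was above miR-450b-3p in 4 of 9. miR-450a-5p was above miR-503-5p in all 6 pools of FA and 1 ppm O3. It was below in 2 ppm O3 pool 1, where only miR-503-5p was listed, and both were at 0 in 2 pools. miR-542-3p and miR-450a-5p (74.6 RPMMM) differed by 0.74 ± 2.01, miR-450a-5p and miR-503-5p (41.7 RPMMM) by 0.57 ± 2.95, and miR-503-5p and miR-450b-3p (22.3 RPMMM) by 1.51 ± 2.87 (SD; exact permutation tests, adjusted p = 0.42969, 0.54688 and 0.36458). The hairpins of the 2 highest members, miR-351 and miR-322, are not adjacent on the chromosome: miR-503, the fifth in level, lies between them.

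The 5′ starts of miR-322-3p were split among 3 main forms. In FA, the form that starts 2 bases upstream made up 42.4, 55.7 and 42.5% of the arm, more than the unshifted form at 41.2, 29.4 and 41.2%. After 1 ppm O3 the upstream form made up 29.6, 27.0 and 39.1%, and after 2 ppm O3 10.9, 23.4 and 26.9%. Every O3 pool was below every FA pool, and those at 2 ppm O3 were below those at 1 ppm O3, by little at the closest (26.9 and 27.0%).

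The ratio of this form to the unshifted form was 1.03, 1.90 and 1.03 in FA, 0.485, 0.471 and 0.762 after 1 ppm O3, and 0.162, 0.41 and 0.549 after 2 ppm O3. In reads, the upstream form stood at 203 to 393 in FA, 190 to 333 after 1 ppm O3 and 11 to 28 after 2 ppm O3, so that the last of these ratios are the least precise. The unshifted form stood at 51 to 68 reads in the 2 ppm O3 pools.

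The form that starts 1 base upstream moved differently. Its ratio to the unshifted form was 0.399, 0.391 and 0.396 in FA, 0.154, 0.223 and 0.119 after 1 ppm O3, and 0.324, 0.344 and 0.490 after 2 ppm O3. The 1 ppm O3 pools were below all others, and those at 2 ppm O3 lay on both sides of FA. Since the seeds of the 3 forms differ, the seed with the largest share of this arm was AAAACAU in the 3 FA pools and AACAUGA in all 6 O3 pools. In FA pools 1 and 3 the upstream and the unshifted form were close, at 245 against 238 reads and 203 against 197 reads.

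Over all shifted starts, the share of miR-322-3p in isomiR entries was 58.8, 70.6 and 58.8% in FA, 39.0, 42.7 and 48.7% after 1 ppm O3, and 32.7, 43.0 and 51.0% after 2 ppm O3. Every O3 pool was below every FA pool. Of the 94 arms in the table with an isomiR and an unshifted entry above the filter, miR-322-3p was 1 of 11 (11.7%) with a lower share in every 1 ppm O3 pool than in every FA pool, and 1 of 12 (12.8%) at 2 ppm O3.

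**Figure D5:**
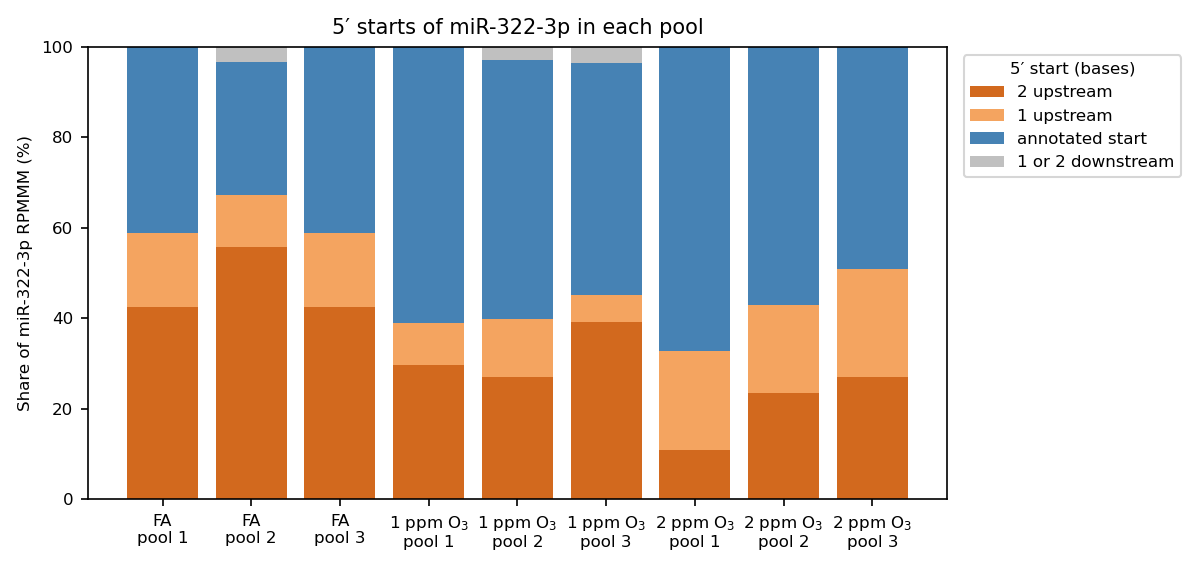
Share of the RPMMM of miR-322-3p (y axis, percent) by 5′ start relative to the RefSeq form (colours) in each of the 9 pools (bars). The start 2 bases upstream makes up 42.4 to 55.7% in FA, 27.0 to 39.1% after 1 ppm O3 and 10.9 to 26.9% after 2 ppm O3.

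miR-351-5p, in contrast, was mostly read from 1 start. Shifted entries made up 2.91 to 11.1% of the arm in FA and 3.36 to 9.39% after 1 ppm O3, and none was listed at 2 ppm O3. There the whole arm was at 433 to 578 RPMMM, and the lowest listed value was 34.34 to 37.3 RPMMM. Shifted entries with a small share of the arm can therefore go unlisted at 2 ppm O3 without a change in their share. The isomiR with the highest mean over the 9 pools, which starts 1 base downstream, was at 132, 133 and 24.3 RPMMM in FA and 21.6, 72.1 and 40.3 RPMMM after 1 ppm O3, with overlap between them. The one that starts 2 bases downstream was at 67.4, 16.8 and 26.1 RPMMM in FA and 59.9, 68.5 and 40.6 RPMMM after 1 ppm O3.

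The miRNAs outside the cluster whose profile over the 9 pools was closest to its summed level included its seed relatives. By the root mean square difference of centred log2(RPMMM + 1) values, the nearest of 229 unshifted entries outside the cluster were miR-125a-5p (0.28), let-7d-5p (0.28), miR-125b-2-5p (0.32), miR-99a-5p (0.34) and miR-125b-1-5p (0.34), beside a median of 0.92. miR-351-5p itself, which makes up most of the sum, was at 0.26, whereas miR-322-3p was at 0.75, miR-542-3p at 2.14 and miR-450a-5p at 2.24. miR-125a-5p was at 16534 ± 2855 RPMMM in FA (SD, n = 3 pools), 12264 ± 828 RPMMM after 1 ppm O3 and 4801 ± 617 RPMMM after 2 ppm O3, which is a log2 difference from FA of -0.42 and -1.78.

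The seed relatives of the cluster were described as lists. Of the miR-125 hairpins, whose unshifted 5p strands share the seed of miR-351-5p, 10 of 22 entries were tested. None was DE at 1 ppm O3, beside 13.2% of all entries tested, with a median log2 difference of -0.40. At 2 ppm O3, 7 (70.0%) were lower, beside 29.3% of all entries tested, with a median of -1.94 beside -0.83. Of these 7, 3 were the unshifted 5p entries that hold the seed, miR-125a-5p and the 2 copies of miR-125b-5p, and 4 were shifted starts. The copies of miR-125b-5p had the same value in each 1 ppm O3 pool, and both also appear among the shifted starts. The 7 entries are thus not independent. Of the hairpins of miR-15 and miR-16 and their relatives, 5 of 26 entries were tested. At 1 ppm O3, 1 (20.0%) was lower, beside 2.82% of all entries tested, with a median of 0.25. None passed at 2 ppm O3, beside 43.6% of all entries tested, with a median of -0.34. The one that was lower was miR-16-1-3p, at -2.33, a 3p arm without the shared seed, and none of the 4 unshifted 5p entries passed in either comparison. Their most abundant entries, the copies of miR-16-5p, differed from FA at 2 ppm O3 by -0.29 (SE 0.17) and -0.34 (SE 0.17).

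The other hairpins of chromosome X were described in the same way. Of 130 entries from 31 other hairpins on X, 43 were tested; 6 (14.0%) were higher and none lower at 1 ppm O3, beside 10.4% and 2.82% of all entries, with a median of 0.11. At 2 ppm O3, 6 (14.0%) were higher and 14 (32.6%) lower, beside 14.3% and 29.3%, with a median of -0.87 beside -0.83 for all entries tested. The most abundant were miR-2137 and let-7f-2-5p. miR-2137 rose in both comparisons with FA, by 4.56 (SE 0.66) and 6.72 (SE 0.66). let-7f-2-5p differed by -0.18 (SE 0.09) at 1 ppm O3 and fell by 1.30 at 2 ppm O3. It has a genomic copy, let-7f-1, on chromosome 13, so its reads may not come from X. The hairpins mir-92a-2 and mir-19b-2 of the list also have a copy on another chromosome.

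Marker miRNAs of other cell types were summed in the same pools. The level of the 5 epithelial hairpins was 66580 ± 2466 RPMMM in FA (SD, n = 3 pools), 53040 ± 2681 RPMMM after 1 ppm O3 and 27756 ± 2167 RPMMM after 2 ppm O3, a ratio to FA of 0.417 at 2 ppm O3 beside 0.219 for the cluster. That of the 3 leukocyte hairpins was 1730.2 ± 360 RPMMM, 2170 ± 280.1 RPMMM and 1349 ± 99.2 RPMMM, and its FA and 1 ppm O3 pools overlapped. The endothelial marker miR-126 was at 196 ± 105, 626 ± 272 and 859 ± 82.6 RPMMM, and the 5 mesenchymal hairpins were at 9130 ± 4821, 8576 ± 1880.5 and 6557 ± 59.6 RPMMM. The mesenchymal mean in FA was carried by pool 3, at 14694 RPMMM, with the other FA pools at 6199 and 6497 RPMMM, no higher than at 2 ppm O3.

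Of the 6 names of miRNAs known to mark skeletal and cardiac muscle, where miR-322 and miR-503 are well studied, 4 were in the table. With genomic copies counted separately, their sum was 262, 1168 and 6051 RPMMM in FA, 180, 146 and 217 RPMMM after 1 ppm O3, and 0, 179 and 0 RPMMM after 2 ppm O3. The FA pool with the most of them was neither the highest nor the lowest in the summed level of the cluster, at 3990.4 RPMMM. The 3 erythroid hairpins summed to 884 to 1822 RPMMM in FA and to 150 to 948 RPMMM in the O3 pools. The part of these cell types in the values of the cluster was not tested.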

How the data were processed

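EV small RNA from 9 pools of BALF (3 each of FA, 1 ppm O3 and 2 ppm O3) was sequenced by the authors, who removed adapters, aligned the reads to mm9 and used miRquant to quantify both miRNAs and their isomiRs. The deposited values were RPMMM, which is RPM of the reads mapped to miRNAs, 1 column per pool; these are not counts, and every column sums to the same total, so a level is a share of all miRNA reads. The version of the miRNA annotation and the test behind the authors' DE calls are not given in the sources used here. Read depth was estimated from the step between low values, searched only among depths that put the lowest value near 10 reads. Of the low values, 71.1 to 86.8% lay within 0.05 reads of a whole number, and the limits are counting error only.

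Entries with a mean above 50 RPMMM were tested as log2(RPMMM + 1), with fold changes on that scale, in one model of the 9 pools with limma 3.58.1 in R 4.3.3, with a mean-variance trend and Benjamini-Hochberg adjustment over 461 entries. Differences within pools were tested with exact sign-flip permutation tests in Python 3.11.15. Both were tested on simulated data. The labels do not say that pools of 1 exposure were exposed separately. The paper's exposure records list 1 run at 1 ppm O3, 1 at 2 ppm O3 and 2 in FA, without tying them to pools. Pools at an O3 concentration may therefore share 1 run, so p-values measure the spread between these pools and not between runs. Positions were found by matching RefSeq mature sequences to mm9. The members, the lists of related hairpins, chromosome X hairpins and cell type markers, and the tests were chosen with earlier results of these data known. Besides the members, up to 2 entries were named per list, those with the highest mean, together with the 5 entries closest in profile. Alternatives covered the pseudocount, filter, scaling, trend, copies, isomiRs and each pool left out; a common floor of 37.3 RPMMM was added after seeing the data.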

Additional observations from a re-analysis of the deposited data

How the results depend on the processing

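Of the 27 log2 differences between exposures compared with up to 19 other settings, 19 kept their sign in every setting run and 8 changed it in at least 1; none of those 8 had been called. The number of members DE at 1 ppm O3 against FA was 1, was 0 with no filter on low values, and ran from 0 to 1 when each pool was left out in turn. At 2 ppm O3 against FA it was 6, was 3 with a mean above 200 RPMMM, where only 4 members are tested, and ran from 5 to 7 without each pool. Between the O3 concentrations it was 7, was 4 with that filter, and ran from 5 to 8. Beside these, the share of all entries called at 2 ppm O3 against FA was 43.6%, 56.8% with a mean above 200 RPMMM, 19.1% with no filter and 15.6 to 47.5% under the settings that change neither the filter nor the pools. The summed level of the cluster was 3246 RPMMM at 1 ppm O3 from unshifted entries alone. At 2 ppm O3 it was 856 RPMMM from unshifted entries, 1341 RPMMM with median-of-ratios scaling, 1252 RPMMM with the total without miR-2137, and 1840 RPMMM without the 5 hairpins, against 1008 RPMMM as deposited. The arm difference of miR-450a-1 ran from 2.65 to 3.56 over the fits without 1 pool. The difference between miR-450a-5p and miR-503-5p turned to -0.049 without FA pool 3, where miR-503-5p is at 0, and ran to 1.37 without 2 ppm O3 pool 1; neither passed the threshold. With a mean above 200 RPMMM no value could be had for miR-542-3p, miR-450a-5p, miR-322-5p or the 1-base upstream isomiR. Comparisons between exposures could not be paired, because the pools of different exposures hold different mice. At the depth of the 2 ppm O3 pools, the lowest listed values were 34.34 to 37.3 RPMMM, taken as about 10 reads. The 3 pools per exposure, unequal in size between FA and O3, limit every comparison.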
